A study of Homo sapiens with 10 samples.

Results

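LS180 is an established human colorectal cancer line, and the 4 libraries described here give the messenger RNA content of its control lines. They are the libraries of the lines NTC1 and NTC2, each with a library A and a library B, taken by their labels from a series of 10. NTC is the usual abbreviation for a non-targeting control, here a guide RNA without a target gene in CRISPR interference, a method in which an inactive Cas9 represses the gene to which a guide directs it. The other 6 libraries come from 3 lines with guides against RNASE1 (RNASE1_sg1, RNASE1_sg2 and RNASE1_sg3). All 5 lines were established from LS180, grown in DMEM with serum, and given no drug. The NTC lines are therefore engineered cells and not unmodified LS180, and the sources used here name neither the repressor and vector nor the number of clones behind a line. The labels do not say what the letters A and B stand for, so the spread between libraries that each p-value is based on may be technical.

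The lining of the colon is renewed from stem cells at the base of crypts, which Wnt signals maintain. Their daughters become absorptive colonocytes, which carry a brush border and take up salt and water, or secretory cells: goblet cells that release mucus, and rarer hormone-secreting enteroendocrine cells. Colorectal cancers keep parts of these programmes, and CDX2, CEACAM5, KRT8 and MUC2 are common markers of colorectal epithelium and its tumours.

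The 4 libraries held 42328928 to 44724971 counts each. A level is given as counts per 1000000 of the library total (CPM) when a gene is followed across libraries, and as TPM (the same after correction for exon length) when genes are compared with each other. A gene is called expressed at 1 CPM or more in each of the 4 libraries, low at a mean of 0.1 to 1 CPM, and silent at a mean under 0.1 CPM. By this rule 12644 genes were expressed, among them 11566 of 19916 protein-coding genes (58.1%), and 6385 protein-coding genes were silent, of which 3952 had no count at all. A count of 0 in all 4 libraries allows a level of up to 0.0174 CPM (3 counts, counting error only). RNASE1, a secreted ribonuclease and the target of the guides, was at 16.1 CPM in NTC1 A, 24.3 in NTC1 B, 18.8 in NTC2 A and 22.8 in NTC2 B, and at 1.02 to 3.79 CPM in the 6 guide libraries.

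Levels were close between libraries. Among the 9521 genes at a mean of 10 CPM or more, the highest of the 4 libraries exceeded the lowest by a median of 1.14 times, and 219 genes (2.30%) reached 1.5 times. Between NTC2 and NTC1, 0 of 16411 tested genes passed (0%; edgeR quasi-likelihood test, Benjamini-Hochberg adjusted p under 0.05), with 282 at an unadjusted p under 0.05. This fit has no term for the letter, so differences between letters count as spread and make genes harder to call. The absence of calls therefore does not show that the lines are equal. With the letter as a replicate block 2 genes were called, with 831 at an unadjusted p under 0.05 (edgeR), and DESeq2 without the block called 2. Far more genes were called between the letters. In B against A within the NTC lines, 3100 genes passed the same test (18.9%), 1612 higher (9.82%) and 1488 lower (9.07%) in B, and most of these differences were small: called genes at 10 CPM or more had a median absolute log2 fold change of 0.23. Calls were more frequent among abundant genes, with 2767 called of the 9521 at 10 CPM or more. The shares among all genes, set beside lists below, are therefore a low background for lists of abundant genes. Without NTC1 A, NTC2 A, NTC1 B or NTC2 B, the letter counts were 1513, 1611, 1556 and 1627. Calls over all genes were thus fewer in these refits, and a smaller count for a list there is to be read beside that loss. "Rose" and "fell" are not used for the letters, which have no order, and "higher in B" below always means the letter test.

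All 4 markers of colorectal epithelium were expressed in every library. KRT8, an epithelial keratin, was at 3317 CPM in NTC1 A, 2452 in NTC1 B, 3099 in NTC2 A and 2541 in NTC2 B. CDX2, the homeobox factor that sets intestinal identity, was at 144, 171, 147 and 170 CPM in the same order. CEACAM5, the carcinoembryonic antigen, was at 152, 147, 137 and 166 CPM. MUC2, the main gel-forming mucin of the colon, was at 81.7, 124, 83.3 and 149 CPM. The letters did not overlap for KRT8 (lower in B, log2 fold change -0.40, SE 0.07, adjusted p = 0.00325), CDX2 (higher, 0.19, SE 0.04, adjusted p = 0.011) or MUC2 (higher, 0.69, SE 0.08, adjusted p = 0.000354; edgeR). For CEACAM5 they overlapped (0.08, SE 0.11, adjusted p = 0.675), since B exceeded A in NTC2 and not in NTC1. The call for KRT8 was lost without NTC1 A or NTC1 B (adjusted p = 0.0755 and 0.0804), and that for CDX2 without any of the 4 libraries (0.0595 to 0.0996). In bulk RNA a larger share of cells with a gene and more of its RNA per cell cannot be told apart.

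The most abundant messages were those of protein synthesis, the cytoskeleton, iron storage and glycolysis. The 30 genes with the highest mean CPM held 10.2% of all counts, the first 100 held 19.2%, and 933 genes held 50%. EEF1A1, which brings transfer RNAs to the ribosome, came first with 13624 ± 700 CPM (SD, n = 4 libraries). FTH1, the heavy chain of ferritin, followed with 6862 ± 358 CPM, then ACTB (cytoplasmic actin) with 5404 ± 375, GAPDH (glycolysis) with 4906 ± 203 and HSPA8 (a constitutive chaperone) with 4777 ± 460. EEF2, RPS2, the mitochondrial MT-CO1, PTMA and ACTG1 completed the first 10. KRT8 stood at rank 14 and was the only keratin among the 30. The group also held 6 ribosomal protein genes (RPS2, RPLP0, RPL4, RPSA, RPL3 and RPL13A), 2 mitochondrial genes (MT-CO1 and MT-RNR2), and the chaperones HSP90AB1, HSP90AA1 and HSPD1. A total of 28 genes were in the first 30 of every single library. Several of these genes have many near-identical pseudogenes (EEF1A1, FTH1, GAPDH, ribosomal protein genes), so their counts depend on how RSEM divided shared reads.

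**Figure D1:**
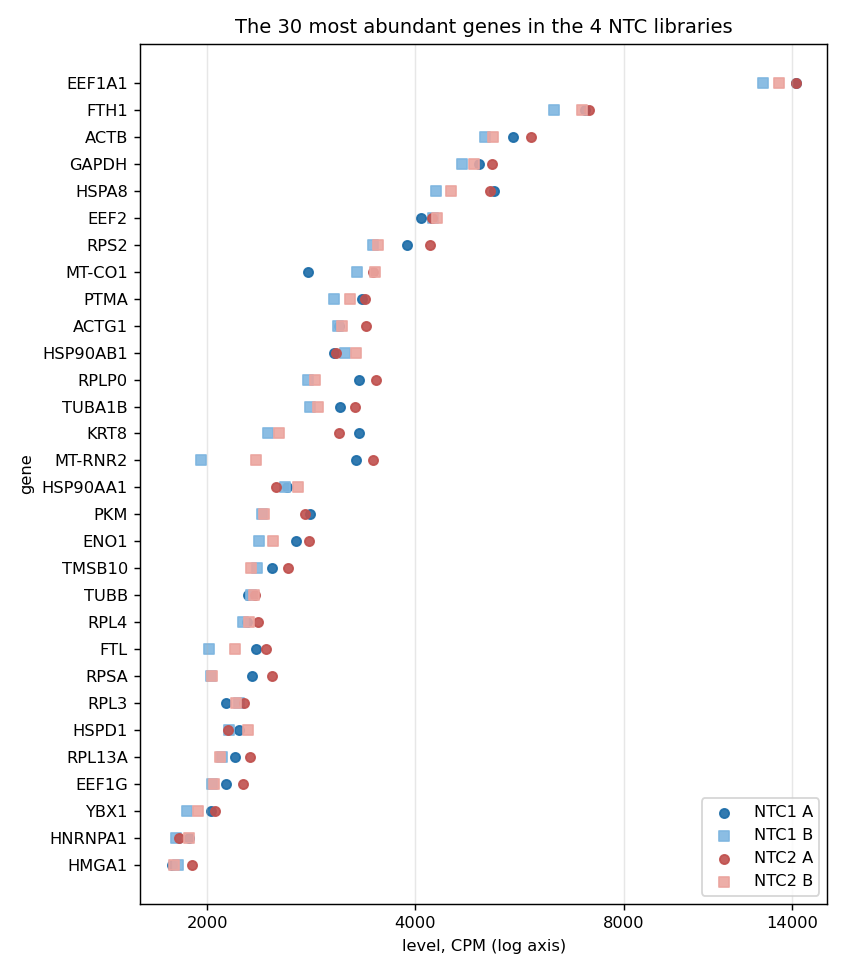
Level in CPM (log axis) of the 30 genes with the highest mean over the 4 NTC libraries, 1 point per library, circles for A and squares for B, blue for NTC1 and red for NTC2. EEF1A1 lies near 13624 CPM and HMGA1 near 1821, and for 21 of the 30 genes both B points lie on one side of both A points. The share of all genes with such a separation is not given here, so the 21 are not shown to be unusual.

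Of these 30 genes 18 were lower in B and none was higher in B, against 9.07% and 9.82% among all genes tested. Among genes at 10 CPM or more, 2767 of 9521 were called in either direction. The largest difference among the 30 genes was that of MT-RNR2, the large mitochondrial ribosomal RNA, at 3277 and 3470 CPM in the A libraries and 1960 and 2356 in the B libraries (log2 fold change -0.68, SE 0.09, adjusted p = 0.000633, edgeR). This RNA is measured here after capture of polyadenylated RNA, so its level also depends on that capture. Among all 79 ribosomal protein genes, every one of which was expressed, 60 were lower in B and 0 higher, against 9.07% lower among all genes tested, with a median log2 fold change of -0.20 against 0.00 for all genes. Together they took 7.26% and 7.28% of counts in the B libraries and 7.91% and 8.23% in the A libraries.

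Ribosomal proteins and elongation factors are known as TOP messages, whose transcripts begin with a C followed by a run of pyrimidines (C or T), a tract through which growth signals control their translation. The starts of 6 of them that hold the tract are shown; the listed starts of RPL4, RPL3 and EEF1G, also among the 30 most abundant genes, do not hold it. In each line below, 15 bases before the RefSeq start are followed by 15 bases from the start on, 5′ to 3′ on the gene's own strand, and the capitals mark the C at the start with the pyrimidines that follow it without a break. GAPDH is shown as an abundant message without it.
EEF1A1: gtcgccgtgaacgttCTTTTTCgcaacggg
EEF2: gttgacgtcagcgttCTCTTCCgccgtcgt
RPLP0: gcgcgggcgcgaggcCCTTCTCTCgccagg
RPSA: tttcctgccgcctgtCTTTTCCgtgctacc
RPL13A: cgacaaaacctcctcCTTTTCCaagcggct
RPS6: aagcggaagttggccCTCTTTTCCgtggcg
GAPDH: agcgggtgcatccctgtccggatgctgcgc
The windows lie on RefSeq's GRCh38.p14 at chr6:73521018-73521047 (EEF1A1, minus strand), chr19:3985449-3985478 (EEF2, minus), chr12:120201097-120201126 (RPLP0, minus), chr3:39406705-39406734 (RPSA, plus), chr19:49487593-49487622 (RPL13A, plus), chr9:19380222-19380251 (RPS6, minus) and chr12:6535249-6535278 (GAPDH, plus). Searched on the gene's strand only, a C at the listed start followed by at least 4 pyrimidines stood in 41 of 53 ribosomal protein genes with 1 listed start (77.4%) and in 9 of 11 other known TOP genes. The share was 18 of 54 (33.3%) among the 100 most abundant genes, 5.69% among 6519 expressed genes, 3.16% among 3546 silent genes, and 4.67% among all 10984 protein-coding genes with 1 listed start. VIM, which the list of other TOP genes holds, was silent, with 1 count in the 4 libraries. Of the 18 tested genes of that list, 6 were lower in B (EEF1A1, EEF1G, TPT1, RACK1, EEF1B2 and EEF1D) and 1, PABPC1, was higher, against 9.07% and 9.82% among all genes.

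Ranked per exon length among protein-coding genes outside the ribosomal proteins and the mitochondrial genome, TMSB10, which binds actin monomers, led with 18172 ± 652 TPM (SD, n = 4), ahead of FTH1 with 12471 TPM and FTL, the light chain of ferritin, with 9436 TPM. EEF1A1 followed with 8450, GAPDH with 6072, ACTB with 5663, ACTG1 with 3920, HSP90AB1 with 3891, EEF2 with 3861 and YBX1, an RNA-binding protein, with 3771 TPM. Of the 30 genes with the highest CPM, 18 were also among the 30 with the highest TPM of all genes.

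Long noncoding RNAs held 0.740% of counts in 701 expressed genes. SNHG29, a host of small nucleolar RNAs, was at 571 ± 53.0 CPM and 560 TPM. H19, an imprinted RNA of fetal tissues, was at 433 and 346 CPM in the A libraries of NTC1 and NTC2 and 552 and 453 CPM in the B libraries, and was higher in B (log2 fold change 0.34, SE 0.04, adjusted p = 0.000279, edgeR). Without line terms (no replicate block) the adjusted p of H19 was 0.0847. NORAD, which binds Pumilio proteins, was at 323 ± 15.2 CPM and TUG1 at 179 ± 6.5 CPM.

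Intestinal transcription factors were almost all present. Of 31 listed, 26 were expressed, 3 were low and 2 silent. Per exon length ASCL2, the Wnt-driven factor of crypt stem cells, led with 513 ± 20.1 TPM (SD, n = 4), ahead of CDX1 with 477 ± 11.8 TPM. MYC followed with 448 ± 39.7 TPM and SOX9, a factor of crypt progenitors, with 353 TPM. KLF5 reached 283 TPM, EHF 185, CDX2 142, VDR (the vitamin D receptor) 92.5 and HNF4A, a nuclear receptor of gut and liver, 90.3 TPM. ASCL2 was at 268, 261, 256 and 245 CPM in NTC1 A, NTC1 B, NTC2 A and NTC2 B, so its letters overlapped. GATA6 (59.0 TPM) and FOXA1 (68.5 TPM) were expressed, while GATA4, which patterns the proximal intestine, was low at 0.145 CPM and GATA5 was silent with 3 counts. NR5A2 was low at 0.151 CPM and MAF silent with 14 counts. Of the 27 tested factors 11 were higher in B and 1, CDX1, lower, against 9.82% and 9.07% among all genes. CDX1 differed little (log2 fold change -0.13, SE 0.04, adjusted p = 0.0438, edgeR), and LEF1, at 0.305 to 1.10 CPM, differed most (1.42, SE 0.40, adjusted p = 0.0282). Both calls were lost without any of the 4 libraries, and that of CDX1 also with no replicate block (adjusted p = 0.0765) and on the 4 NTC libraries alone (0.0791). The count of factors higher in B was 3 without NTC1 A, 5 without NTC1 B, and 2 without NTC2 A or NTC2 B.

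Of the secretory and endocrine factors a smaller share was expressed. Of 20 listed, 9 were expressed. ATOH1, which commits cells to the secretory fate, was at 21.1 and 22.9 CPM in the A libraries and 31.6 and 32.2 in the B libraries, without overlap (log2 fold change 0.50, SE 0.08, adjusted p = 0.00167, edgeR). SPDEF, which matures goblet cells, was at 8.17 and 9.44 CPM in A and 12.4 and 11.4 in B (0.40, SE 0.10, adjusted p = 0.0161), a call that was lost without NTC1 A or NTC1 B (adjusted p = 0.289 and 0.276) and by DESeq2 (0.0918). Per exon length the list was led by ID1 (426 TPM), an inhibitor of bHLH factors, HES6 (279 TPM), XBP1 (220 TPM), which expands the secretory apparatus, and HES4 (77.3 TPM). NEUROG3, which starts endocrine differentiation, was at 0.821 to 1.72 CPM, and the later endocrine factors NEUROD1, FEV and LMX1A had no count. Among 15 factors of stomach, pancreas, lung and other endoderm, 3 were expressed (PDX1 at 5.79 CPM, PAX8 at 4.51 and SOX2 at 1.52) and 10 were silent, 7 of them, including NKX2-1, SOX17 and PTF1A, without a count.

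HOX genes, whose use along a cluster follows position along the body axis, were expressed mainly from the posterior part of HOXA. Of 39 HOX genes 9 were expressed, and 21 were silent. HOXA9 was at 65.0 ± 3.62 CPM, HOXA13 at 59.4 ± 4.66, HOXA10 at 53.8 ± 2.35, HOXA11 at 29.5 and HOXA7 at 23.3 CPM. HOXA2 to HOXA6 stayed at or below 2.11 CPM. In HOXB, HOXB7 (11.6 CPM) and HOXB13 (7.07 ± 0.557 CPM), which marks the distal colon and the prostate, were expressed, and the genes HOXB3, HOXB5, HOXB6, HOXB8 and HOXB9 lay between 0.471 and 0.757 CPM. In HOXC only HOXC13 reached 0.1 CPM (0.209), and in HOXD all 9 measured genes were silent. None of the 18 tested HOX genes passed the letter test, against 18.9% called among all genes. Their log2 fold changes ran from -0.74 to 0.69. Of the listed HOX genes 9 lay at only 0.1 to 1 CPM, so the absence of calls does not show equal levels.

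**Figure D2:**
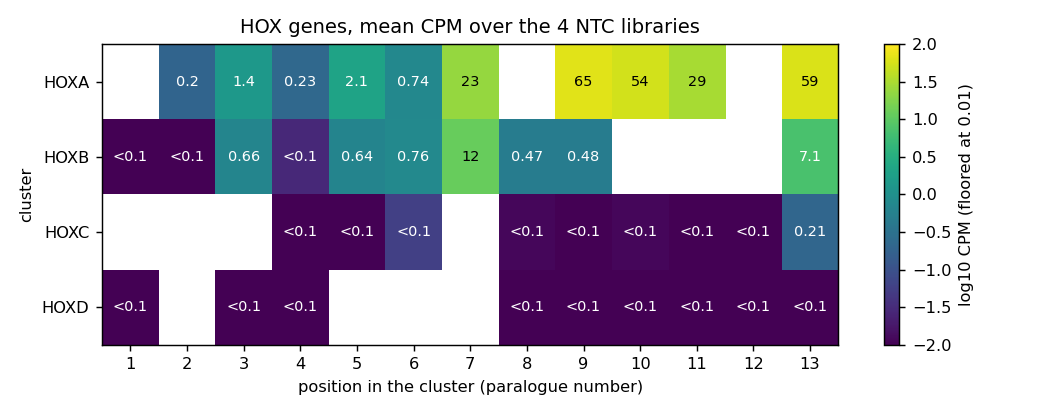
Mean level over the 4 NTC libraries of the HOX genes, clusters as rows and paralogue number as columns, with CPM printed in each cell, colour giving log10 CPM floored at 0.01, and blank cells where no value is shown. The levels above 10 CPM lie in HOXA7, HOXA9, HOXA10, HOXA11, HOXA13 and HOXB7, and all HOXD cells are under 0.1.

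Expressed and silent genes differed in the CG content of their start regions. CG dinucleotides are the sites of DNA methylation, and they are dense in the CpG islands at many promoters. In the 300 bases around the RefSeq start (250 before and 50 after) the median number of CG was 27 in expressed genes, 15 in low genes and 6 in silent genes, and 20 or more CG stood in 77.6% of expressed and 26.3% of silent protein-coding genes with 1 listed start. CG reads alike on both strands. Among the genes of the lists in use here, the median was 22 in 204 expressed and 7 in 143 silent genes, and 37 of those 143 silent genes had 20 or more. The starts of 2 expressed and 2 silent intestinal genes show the range, from 130 bases before the start to 20 after it, 5′ to 3′ on the gene's strand, with each CG in capitals. CDX2 and CEACAM5 were expressed. SCNN1B (a subunit of the epithelial sodium channel) had no count, and SI (sucrase-isomaltase of the small intestine) had 5 counts in all 4 libraries.
CDX2: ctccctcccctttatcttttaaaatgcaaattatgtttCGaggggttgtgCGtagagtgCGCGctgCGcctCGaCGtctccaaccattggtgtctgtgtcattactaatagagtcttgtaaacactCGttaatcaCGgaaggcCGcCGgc
CEACAM5: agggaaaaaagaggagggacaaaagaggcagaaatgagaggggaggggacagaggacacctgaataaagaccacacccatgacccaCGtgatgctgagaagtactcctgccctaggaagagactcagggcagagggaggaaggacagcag
SCNN1B: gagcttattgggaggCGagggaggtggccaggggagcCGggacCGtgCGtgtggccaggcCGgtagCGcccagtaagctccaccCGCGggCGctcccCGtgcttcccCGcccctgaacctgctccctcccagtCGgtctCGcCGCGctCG
SI: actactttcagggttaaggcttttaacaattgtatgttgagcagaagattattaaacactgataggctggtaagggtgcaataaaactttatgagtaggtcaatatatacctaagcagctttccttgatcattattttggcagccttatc
The windows lie at chr13:27969296-27969445 (CDX2, minus strand), chr19:41708496-41708645 (CEACAM5, plus), chr16:23302172-23302321 (SCNN1B, plus) and chr3:165078477-165078626 (SI, minus) of GRCh38.p14, from RefSeq. The printed stretch of CDX2 holds 11 CG, that of CEACAM5 1, that of SCNN1B 16 and that of SI 0. CEACAM5 was thus expressed from a start region poor in CG, with 2 in 300 bases, and SCNN1B was silent with 29. Methylation was not measured in these data.

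All 4 gel-forming mucins of the chromosome 11 cluster were expressed. MUC6, a mucin of gastric glands, was the highest per exon length at 127 ± 14.7 TPM (SD, n = 4), and MUC2 followed with 32.0 ± 10.1 TPM, MUC5AC, the mucin of the stomach surface, with 18.6 ± 2.16 and MUC5B with 12.3 ± 2.02 TPM. The genes lie side by side on GRCh38, MUC6 at chr11:1012821-1036706, MUC2 at chr11:1074875-1110511, MUC5AC at chr11:1157953-1201138 and MUC5B at chr11:1223066-1262172. MUC6 was at 275 and 260 CPM in the A libraries and 306 and 321 in the B libraries, without overlap but short of the threshold (log2 fold change 0.20, SE 0.08, adjusted p = 0.113, edgeR), which it passed when the 4 NTC libraries were fitted alone (0.00357). MUC2 and MUC5B were higher in B (0.69 and 0.30, adjusted p = 0.000354 and 0.0193), MUC5B no longer without NTC2 A or NTC2 B (0.27 and 0.267). MUC5AC was at 94.2 (A) and 91.5 CPM (B) in NTC1 and 74.4 (A) and 90.1 CPM (B) in NTC2, and its letters overlapped. MUC7 and MUC19, salivary mucins, were silent with 1 and 3 counts. The long, repetitive exons of mucins lower the accuracy of their counts and lengths.

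Among membrane mucins MUC13 stood first with 211 TPM and 184 to 217 CPM, ahead of MUC3A with 14.3 TPM, MUC20 with 4.32 and MUC17 with 2.27 TPM. MUC1 was low at 0.561 ± 0.113 CPM and MUC4 at 0.115 CPM. MUC15, MUC16, MUC21 and MUC22 had no count. MUC3A, MUC12 and MUC17 are similar neighbours, and their counts are uncertain.

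Secreted mucus and defence proteins other than mucins were present as well, of goblet cells and of other cell types. Of 35 listed mucus and defence proteins 18 were expressed and 10 silent. AGR2, a disulfide isomerase that folds mucins, led with 789 ± 55.1 TPM. OLFM4, a secreted glycoprotein of crypt stem cells, was next with 577 TPM, then PLA2G2A, an antibacterial phospholipase, with 575, and PIGR, which carries immunoglobulin A across the epithelium, with 396 TPM. TFF3, the goblet cell trefoil peptide, reached 241 TPM, TFF1, the gastric one, 200, SPINK4 172, REG4 123 and LYZ (lysozyme) 73.9 TPM. The silent members included the colonic hormones GUCA2A and GUCA2B (9 and 1 counts), REG3A (1 count) and DMBT1 (8 counts).

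OLFM4 and FCGBP of this group had the largest differences of all genes higher in B at 10 CPM or more. OLFM4 was at 243 CPM in NTC1 A and 257 in NTC2 A, against 624 in NTC1 B and 673 in NTC2 B (log2 fold change 1.34, SE 0.11, adjusted p = 5.26e-05, edgeR). FCGBP, a mucus protein that binds the mucin network, was at 114 and 115 CPM in A and 234 and 238 in B (1.01, SE 0.06, adjusted p = 6.62e-06). PLA2G2A was at 194 and 224 CPM in A and 306 and 322 in B (0.56, SE 0.05, adjusted p = 5.26e-05). TFF1 went the other way, with 36.4 and 38.5 CPM in A and 22.2 and 22.6 in B (-0.77, SE 0.08, adjusted p = 0.00013). The Paneth cell defensins DEFA5 and DEFA6 were near the lower limit of the expressed class, at 1.06 and 1.55 CPM against 4.09 and 4.58 for DEFA5 and 0.821 and 1.60 against 4.34 and 5.41 for DEFA6 (1.71 and 2.01, adjusted p = 0.000254 and 0.000225). In all, 8 of 23 tested members were higher in B and 1 lower, against 9.82% and 9.07% among all genes. The 8 became 5 without NTC1 A or NTC1 B, and 4 by DESeq2. REG4 (116 to 124 CPM in A, 110 to 115 in B) and AGR2 (571 to 659 CPM over the 4 libraries) did not pass the test, with adjusted p = 0.0921 and 0.476.

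**Figure D3:**
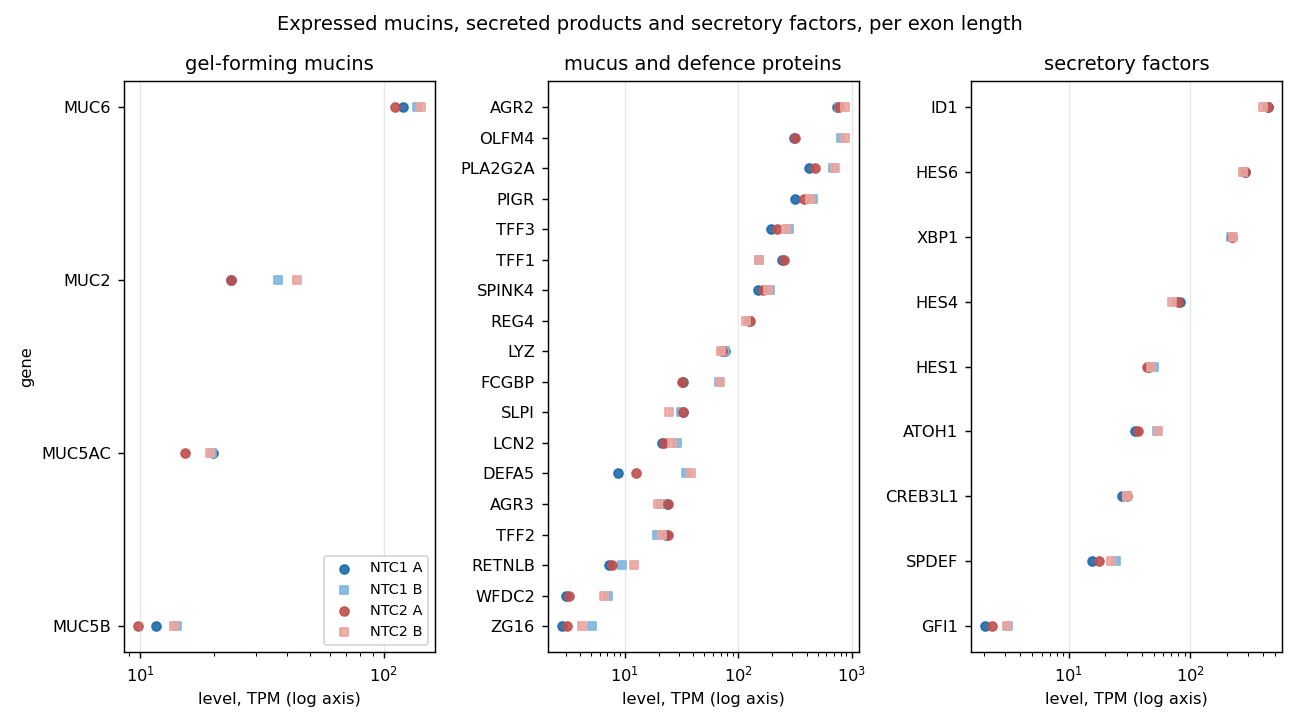
Level in TPM (log axes) of the expressed gel-forming mucins, mucus and defence proteins and secretory transcription factors, 1 point per NTC library, circles for A and squares for B, blue for NTC1 and red for NTC2. OLFM4, MUC2 and DEFA5 show the squares to the right of the circles, TFF1 shows them to the left, and AGR2 leads its panel with a mean of 789 TPM.

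The epithelial programme was strong. Of 38 junction and adhesion genes 34 were expressed. EPCAM, an adhesion protein of simple epithelia, stood at 1374 TPM (876 to 982 CPM), LGALS4, a lectin of intestinal cells, at 844 TPM, ITGA6 at 676, CLDN7 at 606 and CLDN3 at 473 TPM. CDH1, E-cadherin, was at 299 ± 11 CPM, CDH17, liver-intestine cadherin, at 260 ± 12.7 and GPA33, a colon antigen, at 285 ± 29.4 CPM. The mesenchymal cadherin CDH2 was silent with 3 counts, as was CLDN18, the claudin of stomach and lung, with 0. Of 35 tested members 9 were higher and 8 lower in B, against 9.82% and 9.07% among all genes.

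The keratins of simple epithelium were the highest of the 23 measured, of which 11 were expressed. KRT18, the partner of KRT8, was at 1735 ± 226 TPM, KRT8 at 1527 and KRT19 at 577 ± 79.0 TPM, and KRT10, a keratin of stratified epithelium, followed with 48.9 TPM. KRT8 and KRT18 overlap on opposite strands of chromosome 12 (chr12:52897187-52949954 and chr12:52948871-52952901, GRCh38, GENCODE 29). The protocol in the labels describes no strand marking, so reads in the overlap cannot be assigned by strand. KRT20, of differentiated colonocytes, was at 3.90 to 7.65 CPM. Of 18 tested keratins 6 were lower in B (KRT8, KRT18, KRT19, KRT80, KRT17 and KRT6A), against 9.07% of all genes, and 1, KRT20, was higher, against 9.82% (log2 fold change 0.64, SE 0.13, adjusted p = 0.0056, edgeR). KRT17, an injury keratin, was at 18.3 and 16.4 CPM in A and 7.80 and 8.98 in B (-1.08, SE 0.19, adjusted p = 0.00265). Without NTC1 A or NTC1 B only 2 keratins were lower in B and none higher, and the adjusted p of KRT17 was 0.0741 and 0.0676. In the CEA family CEACAM5 (166 TPM) and CEACAM6 (125 TPM) led, CEACAM1 followed with 4.03 TPM, and CEACAM7, of mature colonocytes, was low at 0.164 CPM.

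Stem cell and Wnt feedback genes were nearly all on. Of 20 listed, 18 were expressed and PROM1 was silent, with 7 counts. Besides OLFM4 and ASCL2, EPHB3, an ephrin receptor that sorts cells along the crypt, reached 454 ± 43.1 TPM, CD44 193, AXIN2, a feedback inhibitor of the Wnt pathway, 184 ± 20.1 and EPHB2 153 TPM. RNF43, a ligase that removes Wnt receptors, was at 96.7 TPM and LGR5, the stem cell R-spondin receptor, at 54.9 TPM (70.9 and 72.2 CPM in A, 84.2 and 84.5 in B). Of 19 tested genes 9 were higher in B and 0 lower, against 9.82% and 9.07% among all genes (median log2 fold change 0.14 against 0.00 for all genes): OLFM4, EPHB3, EPHB2, AXIN2, NKD1, LGR5, SMOC2, LRIG1 and APCDD1. The list had a median level of 113 CPM, and among all genes at 10 CPM or more 2767 of 9521 were called in either direction. Apart from OLFM4 the differences of these 9 genes stayed at or below 0.40. The count was 7 without NTC1 A or NTC1 B and 4 without NTC2 A or NTC2 B.

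Wnt receptors stood above the ligands. WLS, the carrier of Wnt proteins (79.7 TPM), LRP5 (76.9), LGR5, LGR4 (49.9), FZD5 (47.5), LRP6 (37.1) and FZD6 (36.3 TPM) led the list, in which 19 of 40 genes were expressed. The most abundant Wnt ligands were WNT7B at 5.86 TPM and WNT10A at 4.40 TPM. WNT3, WNT5A, WNT2 and the R-spondins RSPO1, RSPO2, RSPO3 and RSPO4 were silent, 4 of these 7 genes (WNT5A, RSPO1, RSPO2 and RSPO3) with no count. In the Notch pathway NOTCH1 (68.8 TPM), the ligand JAG1 (61.2 TPM) and NOTCH2 (31.4 TPM) led. NOTCH1 was at 171 and 159 CPM in A and 230 and 210 in B (0.38, SE 0.04, adjusted p = 0.000246, edgeR), and the ligands DLL4, JAG2 and DLL1 were also higher in B (0.41, 0.54 and 0.32), which made 4 of 9 tested, against 9.82% among all genes. DLL1 lost its call without any of the 4 libraries.

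Villin (VIL1, 149 TPM) and ezrin (EZR, 345 TPM), which build microvilli, were high, and USH1C (38.4 TPM) and EPS8L3 (38.5 TPM) were expressed. Of 31 brush border genes and digestive enzymes 15 were expressed and 10 silent. The silent ones included the enzymes SI (5 counts), LCT (lactase, 7), ALPI (intestinal alkaline phosphatase, 13) and MGAM (3). DPP4, a peptidase, was at 25.7 TPM, and ANPEP was at 1.28 CPM.

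Among 50 absorptive transporters and lipid genes 23 were expressed and 21 silent. SLC12A2, the chloride loader of secreting epithelia, was the highest with 477 ± 58.9 TPM (1204 and 1317 CPM in A, 1465 and 1521 in B). ABCB1, the drug efflux pump, was at 97.1 ± 15.8 TPM, DGAT1, a triglyceride enzyme, at 66.2, SCNN1A at 54.3, CA9, a carbonic anhydrase, at 51.6 and CFTR, the chloride channel, at 31.2 ± 1.86 TPM. SLC26A3, the chloride exchanger of colonocytes (1 count), AQP8 (6), CA1 (2), SCNN1B (0), CA4 (0), the peptide carrier SLC15A1 (0) and the lipoprotein genes APOB (0), APOA4 (2) and APOC3 (0) were silent. ABCB1 and SLC12A2 were higher in B (0.32 and 0.21, adjusted p = 0.00348 and 0.00667), and CA9 was lower, at 27.3 and 27.7 CPM in A and 20.1 and 18.5 in B (-0.55, SE 0.06, adjusted p = 0.000286; edgeR). ABCB1 lost its call without NTC1 A or NTC1 B (0.0762 and 0.0576) and SLC12A2 without NTC2 A or NTC2 B (0.111 and 0.11).

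None of the listed enteroendocrine hormones and granule proteins was expressed. Of 19 hormones and granule proteins 17 were silent and 11, among them CHGA, CHGB, PYY, GAST and SST, had no count. SCG2 (0.945 CPM) and SCG5 (0.161 CPM) were low. Their summed level was 0.657 to 1.72 CPM per library.

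Few of the listed markers of other cell types were expressed, and those are named here. The gastric list does not hold TFF1 (29.9 CPM) or MUC5AC, which were expressed. Likewise, the acinar list does not hold the expressed genes PRSS2 (22.4 CPM) and PRSS3. The counts below therefore apply to these lists only. Of 8 endothelial markers 0 were expressed, and the summed level was 0.661 to 0.727 CPM. Of 12 leukocyte markers only LYZ and CD68 (8.23 CPM) were expressed, with PTPRC, CD3D, MS4A1 and NKG7 at 0 counts and a summed level of 42.9 to 46.4 CPM, mostly LYZ. Of 12 hepatocyte markers only SERPINA1 (10.9 CPM) was expressed, with ALB, AFP and FGB at 0 and a summed level of 7.70 to 14.8 CPM. Of 11 gastric markers MUC6 and TFF2 (4.94 CPM) were expressed, and GKN1, GKN2, ATP4B and LIPF were at 0 (265 to 326 CPM summed, nearly all MUC6). Of 10 fibroblast markers 2 were expressed in each library (ACTA2, 4.48 CPM, and COL3A1, 1.64 CPM), PDGFRB (1.18 CPM) and LUM (1.17 CPM) reached a mean of 1 CPM without doing so in each, with COL1A2 and POSTN at 0 and 8.44 to 9.57 CPM in sum. Of 10 pancreatic acinar markers only PRSS1, a trypsin with near-identical copies, was expressed (6.81 CPM), and the list summed to 6.28 to 8.19 CPM. Of 8 neural markers TUBB3 (10.4 CPM) and SYP (2.00) were expressed, with SNAP25 and OLIG2 at 0 and 10.5 to 16.1 CPM in sum. Of 8 markers of an embryonic kidney line WT1 (10.8 ± 0.440 CPM) and PAX8 were expressed, GATA3 had a mean of 1.12 CPM without reaching 1 in each library, with SALL1 and NEFL at 0 and 16.0 to 17.0 CPM in sum.

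**Figure D4:**
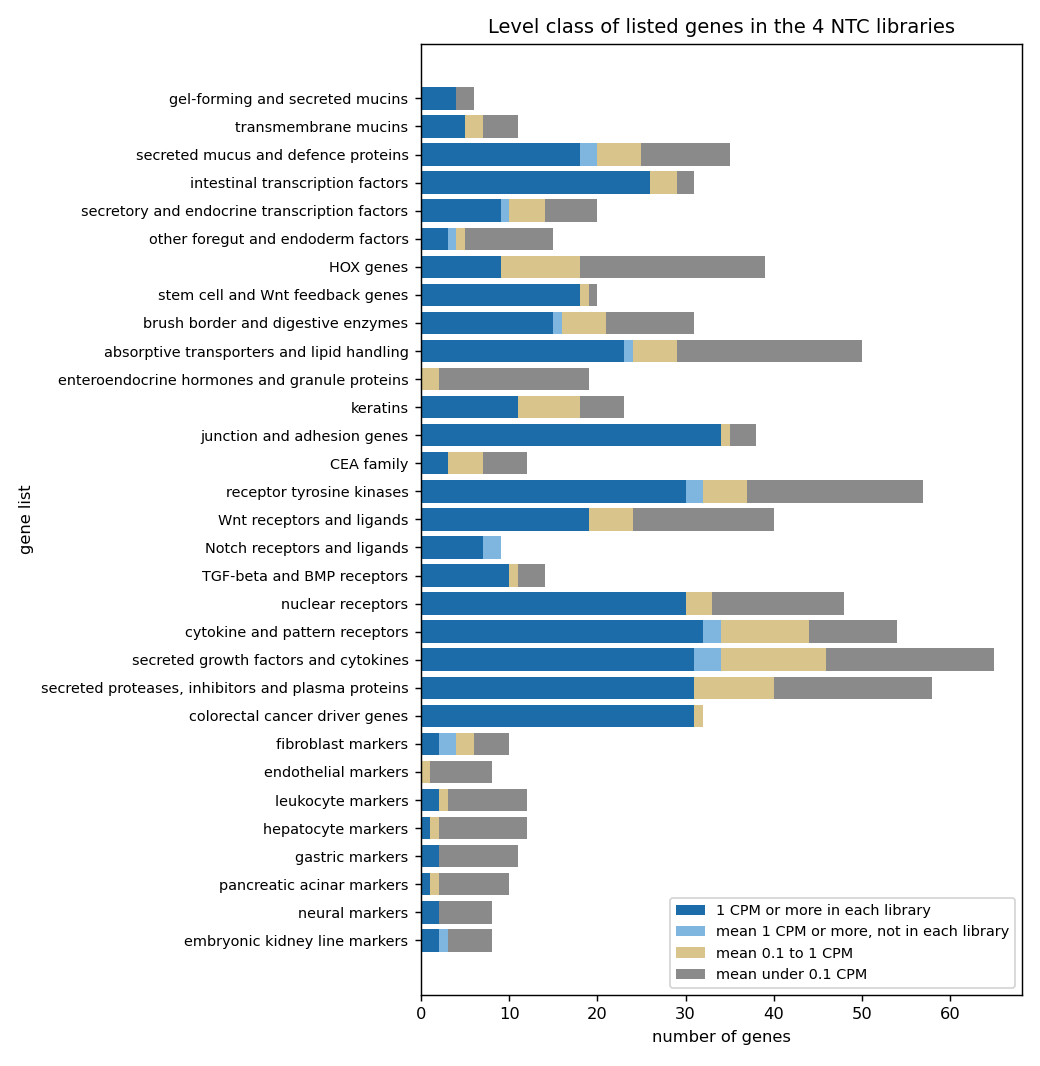
Number of genes of each list at 1 CPM or more in each of the 4 NTC libraries, at a mean of 1 CPM or more without reaching it in each, at 0.1 to 1 CPM, and under 0.1 CPM, as stacked bars. Driver genes (31 of 32) and junction genes (34 of 38) are nearly all expressed, and the enteroendocrine list has no expressed gene among 19.

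Receptor tyrosine kinases were led by the ephrin receptors and the ERBB and MET families. Of 57 measured, 30 were expressed and 20 silent. After EPHB3 and EPHB2 came EPHB4 (119 TPM), MET (111 TPM), the receptor for hepatocyte growth factor, ERBB3 (90.9), EPHA2 (86.8), DDR1 (75.4) and ERBB2 (65.6 TPM). MET was at 217, 207, 208 and 214 CPM in NTC1 A, NTC1 B, NTC2 A and NTC2 B, so letters and lines overlapped. EGFR was at 114 and 110 CPM in A and 134 and 125 in B (log2 fold change 0.18, SE 0.04, adjusted p = 0.0101, edgeR), a call lost without NTC1 A or NTC1 B (0.0876 and 0.0718). KIT, known from germ cells, mast cells and pacemaker cells of the gut, was expressed at 33.7 ± 1.88 CPM. The receptors of vessels and stroma, KDR, FLT4, TIE1 and PDGFRA, were silent, the last with 2 counts and the others with 0, and RET had 2 counts and ALK none.

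Of 48 nuclear receptors 30 were expressed. NR2F6 (149 TPM), ESRRA (122 TPM), VDR (92.5 TPM), HNF4A (90.3 TPM) and PPARG (85.6 TPM), the adipogenic receptor also found in colonocytes, led. PPARG was at 104 to 107 CPM in the 4 libraries. The glucocorticoid receptor NR3C1, the progesterone receptor PGR and the bile acid receptor NR1H4 had no count, which limits each to 0.0174 CPM, and the oestrogen receptors ESR1 and ESR2 had 2 and 11 counts. Of 14 TGF-beta and BMP receptors 10 were expressed, led by TGFBR1 (35.4 TPM), and TGFBR2, often mutated in colorectal cancers with mismatch repair loss, was at 15.9 CPM.

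Of 54 cytokine, pattern and related receptors 32 were expressed. F2RL1, a receptor cut by proteases, led with 127 TPM, ahead of TNFRSF21 (78.2), TNFRSF1A (70.4) and the death receptor TNFRSF10B (68.5 TPM). The interferon receptor chains IFNAR1 (55.3 TPM), IFNGR2 (35.5 TPM) and IFNGR1 were expressed. GUCY2C, the receptor for guanylin and a colonic marker, was at 11.4 ± 0.765 CPM. TLR3 was at 8.35 CPM, TLR5 at 1.13 and TLR4 was low at 0.327 CPM, and TLR7, TLR8, TLR9, OSMR and LIFR had no count.

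Secreted growth factors were led by MIF with 1749 ± 165 TPM, a cytokine made by most cells. BMP4 (330 ± 17.4 TPM), AREG (160 TPM), GDF15 (154 TPM), EREG (121 ± 8.92 TPM), CXCL16 (118 TPM) and IL32 (114 TPM) followed. AREG and EREG are ligands of EGFR, and they were at 66.4 to 76.6 CPM and 176 to 203 CPM. Of 65 measured, 31 were expressed and 19 silent, 10 of them without a count, among these HGF, NRG1, IL6, CCL2 and CSF3. Of 43 tested, 7 were lower in B, MIF, CCL15, IL33, IL18, BTC, DKK1 and CXCL8, and MDK was higher, a share of calls near the 18.9% among all genes. IL33, an alarmin, was at 32.2 and 29.4 CPM in A and 20.6 and 16.8 in B (-0.76, SE 0.10, adjusted p = 0.000467, edgeR). DKK1, a secreted Wnt inhibitor, was at 6.88 and 6.94 CPM in A and 3.13 and 3.59 in B (-1.08, SE 0.14, adjusted p = 0.000433).

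Among 58 secreted proteases, inhibitors and plasma proteins 31 were expressed. CTSD, a lysosomal protease, reached 572 ± 22.4 TPM and IGFBP4, which binds insulin-like growth factors, 569 ± 24.5 TPM, ahead of PRSS3 (164 TPM), a trypsin with near-identical copies, and TIMP1 (150 TPM), an inhibitor of metalloproteases. RNASE1 was at 50.4 TPM, above its relatives RNASE4 (14.2 TPM) and ANG (11.5 TPM). Its letters did not overlap (higher in B, 0.40, SE 0.10, adjusted p = 0.0135), but without NTC1 A, or without NTC1 B, the adjusted p was 0.272 and 0.271 (edgeR), DESeq2 gave 0.095, and the fit with no replicate block gave 0.356. The metalloproteases MMP1, MMP3, MMP7, MMP9 and MMP13 were silent, with 0 to 8 counts, as were FN1 (1 count), ALB and AFP (0).

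All but 1 of 32 colorectal cancer driver genes were expressed. CTNNB1, beta-catenin, was at 1078 ± 33.7 CPM (334 TPM), APC at 40.2 CPM and BRAF at 25.1 CPM. PMS2 (28.7 TPM) and MSH6 (28.3 TPM), of mismatch repair, were expressed. CDKN2A, a cell cycle inhibitor, was the exception, at 0.258 and 0.313 CPM in the NTC1 libraries and 0.0696 and 0.142 in the NTC2 libraries, while CDKN1A, another one, was at 179 to 216 CPM. A messenger RNA level does not show whether a gene is mutated, and variants were not analysed here.

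The genes with the largest letter differences at 10 CPM or more were, among those higher in B, OLFM4, FCGBP, C22orf46, ZIM3 and SERPINA1, and among those lower, IGFL2, ADAM19, KRT17, CTSE and TFF1. IGFL2, a secreted factor of the insulin family, was at 79.3 and 70.8 CPM in A and 31.3 and 37.4 in B (-1.16, SE 0.17, adjusted p = 0.000833). ADAM19, a membrane protease, was at 50.4 and 35.6 CPM in A and 25.9 and 15.3 in B (-1.11, SE 0.09, adjusted p = 3.88e-05). ZIM3, a KRAB zinc finger gene, was at 15.1 and 11.2 CPM in A and 28.4 and 20.1 in B (0.84, SE 0.08, adjusted p = 8.11e-05; all edgeR). The KRAB domain of ZIM3 is used in some CRISPR interference repressors, the labels do not name the one used here, and the origin of these reads was not tested. SERPINA1 lost its call without NTC1 A (adjusted p = 0.0589).

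**Figure D5:**
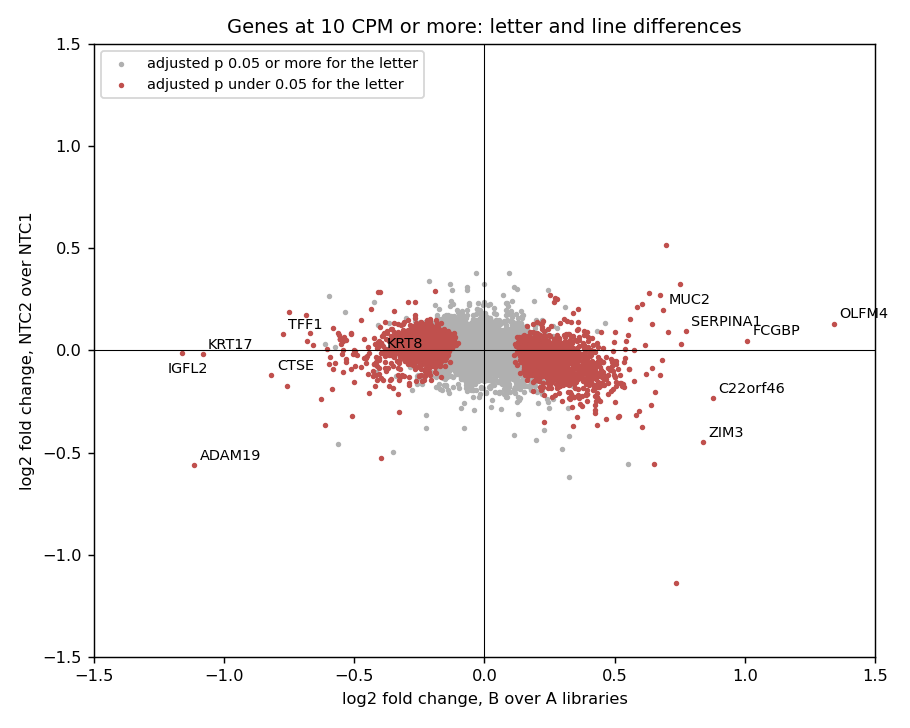
Log2 fold change of B over A (horizontal) against that of NTC2 over NTC1 (vertical) for 9521 genes at a mean of 10 CPM or more in the NTC libraries, with genes past the letter test in red. The cloud is wider along the letter than along the line (median sizes 0.11 and 0.04), and OLFM4, FCGBP, IGFL2, ADAM19 and KRT17 lie beyond 1 on the letter axis.

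Between the 2 lines, the calls with the letter as a replicate block were AC000120.3 and U2AF1. U2AF1, a splicing factor with a near-identical copy in the assembly, was at 13.4 and 26.1 CPM in the libraries of NTC1 and 7.23 and 10.4 in those of NTC2 (-1.12, SE 0.15, adjusted p = 0.0377, edgeR with the block). AC000120.3 was at 0 in both libraries of NTC1 and at 1.39 and 1.23 CPM in NTC2. Neither gene is in the lists, and both are named here because of these calls.

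Most genes expressed in the NTC libraries reached 1 CPM in the RNASE1 lines too. Of the 12644 genes expressed in the NTC libraries, 12510 were at 1 CPM or more in each of the 6 guide libraries too, and the other 134 had means of at most 8.93 CPM. This count does not show equal levels, since RNASE1 itself, at 1.02 to 3.79 CPM in the guide libraries, is among the 12510. It also leaves out genes expressed only in the guide lines. With the libraries of each line added together, 3 guide lines were set against 2 NTC lines, and 4 of 17335 genes passed (0.0231%; edgeR): RNASE1, lower in the guide lines, and SOD3, TNS4 and AC010487.3, higher. With so few lines, the small number of calls does not show that other genes are at equal levels. With the letter as a replicate block the count was 9, and it was 12 without NTC1 B, 29 without both NTC1 libraries and 9 without RNASE1_sg3 B. It was 2 without NTC2 A or either RNASE1_sg2 library, and 1 without NTC2 B, RNASE1_sg1 A or RNASE1_sg3 A. RNASE1 was called in each of these refits. SOD3 and TNS4 lost their calls when any single library other than RNASE1_sg1 B was left out, and AC010487.3 lost its call without NTC2 B, RNASE1_sg1 A or RNASE1_sg3 A. With the replicate block SOD3 and AC010487.3 were not called. Of 522 tested genes of the lists used here, RNASE1 alone passed in this fit, and other settings called other members. With the replicate block OLFM4, REG1A and PRSS2 passed as well, and outside the lists H19 did (0.20, SE 0.03, adjusted p = 0.0454, edgeR). DESeq2 called CTSZ, SMOC2, ITGB4 and CLDN2 and gave no adjusted p for RNASE1, and with no filter on low counts 30 members were called. OLFM4, at 243 to 673 CPM in the NTC libraries and 185 to 502 in the guide libraries, did not pass in the summed comparison (-0.65, SE 0.13, adjusted p = 0.197) and passed with the replicate block (-0.58, SE 0.09, adjusted p = 0.0454).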

How the data were processed

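Per the labels' protocols, polyadenylated RNA was captured on oligo(dT) beads, fragmented and copied with random primers. The authors deposited 1 table of RSEM expected counts for 58870 genes (the program as the table is named), of which 7.12% of values are not whole. The submitters' processing notes name hg38, CASAVA 1.8.2, TopHat2 2.0.8 and FastQC 0.11.2. The annotation release was not given in the sources used here, nor were the roles of these tools.

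CPM is the expected count per 1000000 of the library total. TPM uses union exon lengths of GENCODE release 29 (GRCh38), which 58552 identifiers matched. The 318 others, with 0.0480% of NTC counts, have no TPM. Counts were rounded and tested with edgeR 4.0.16 (TMM, filterByExpr, quasi-likelihood, two-sided, Benjamini-Hochberg, threshold 0.05) in R 4.3.3, with DESeq2 1.42.0 as an alternative. NTC2 against NTC1 and the letters were fitted on all 10 libraries, the letter test with line means. The procedure was tested on simulated data. For NTC2 against NTC1 the simulated libraries held no letter differences, unlike the libraries here. That simulation therefore does not show how many line differences could be found in these data. Same-letter libraries deviated together from their line means (r from 0.245 to 0.427 over 10 pairs of lines, 13026 genes), so the letters pair the samples, as read from the values and shared labels. Symbols in the lists came from the table, and MS4A12, LMTK3, TGFB1 and GIF were not analysed here.

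Named genes are the 30 highest by CPM, 10 by TPM, members of the lists, led by the 4 highest per exon length, and 5 genes per direction with the largest letter difference at 10 CPM or more and no overlap of letters. Other names were chosen after values were seen. The libraries, gene lists and rules were chosen with earlier results of these data known. Promoter sequences are from RefSeq (GRCh38.p14). Floors cover counting error only.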

Additional observations from a re-analysis of the deposited data

Results flagged for a closer look

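Among 139 values examined for a library apart from the other 3 (its gap to the nearest other, relative to the range, above Dixon's critical value, which chance exceeds in about 1 of 20 groups), 5 were found. TGFBR3, a TGF-beta co-receptor, was at 40.2 CPM in NTC2 B and at 37.7 to 38.0 in the others. JAG1, a Notch ligand, was at 146 CPM in NTC2 B against 156 to 158. WLS was at 90.7 CPM in NTC1 B against 97.8 to 98.8. ACTG1, cytoplasmic actin, was at 3393 CPM in NTC2 A against 3089 to 3133, and DGAT1 was at 81.8 CPM in NTC2 A against 70.8 to 72.2.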

How the results depend on the processing

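The number of genes called between NTC2 and NTC1 was 0 by edgeR with RLE factors and on the 4 NTC libraries alone. It was 2 by DESeq2, 57 with no filter on low counts, and 2 with the letter as a replicate block. Between letters, DESeq2 called 1957 genes against 3100, 1899 of them shared, and 3218 were called with no replicate block. Without single libraries the count ran from 1513 to 1627. Between guide and NTC lines, DESeq2 called 55 genes, no filter gave 238, and the replicate block gave 9. Leaving out single libraries gave 1 to 12 and whole lines 5 to 29; the refits without a guide library or a whole line were chosen after seeing the data. The cause of these changes was not tested. For DESeq2, RNASE1 has no adjusted p in that comparison. Without mitochondrial and ribosomal protein genes the 100 most abundant genes held 18.1% of counts, and 18 of the 30 highest genes remained per kilobase. Leaving out single libraries, the letter difference of CEACAM5 ran from -0.0937 to 0.266 and was below 0 without NTC2 A or NTC2 B. The 10 named letter genes kept their call in 87 of 90 refits; the 3 others were SERPINA1 without NTC1 A and KRT17 without either NTC1 library. These 10 genes were picked for large, called letter differences without overlap in the same libraries, so that share does not extend to other letter calls. With the longest transcript as length, 5 of 99 leading TPM values moved by over 1.5 times. Depth limits levels under 0.0174 CPM.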
